A study of Brassica napus with 48 samples.

Results

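The genes nad4, nad4L and nad7 encode subunits of respiratory complex I and are read from the mitochondrial genome of flowering plants. They were measured here in rapeseed (Brassica napus) flower buds on the Affymetrix ATH1 array, a short-oligonucleotide array designed for Arabidopsis thaliana, a species of the same family. Members were the probe sets that the array annotation pairs with exactly one of these genes. This rule gave 3 genes of the 13350 named by such probe sets, with 1 probe set each among the 22746 that are not array controls, namely 244929_at for nad4 (Arabidopsis locus ATMG00580), 244902_at for nad4L (ATMG00650) and 244925_at for nad7 (ATMG00510). All 3 passed the filter on dim probe sets, which kept 14021 probe sets for testing.

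The samples came from a pair of lines with dominant genic male sterility, each of which segregates sterile and fertile plants. In line J10 the sterile plants were MsMsrfrf and the fertile plants MsMsRfrf, so both carried the sterility allele Ms on each chromosome and the fertile plants also carried the restorer allele Rf. In line J03 the sterile plants were Msmsrfrf and the fertile plants msmsrfrf, so the fertile plants lacked Ms. All plants grew in one field, and buds with stamens and pistils were taken in 3 size classes, small (under 1 mm, tetrad stage), middle (1 to 3 mm, uninucleate stage) and large (over 3 mm, trinucleate stage). The labels place these classes before, during and after anther abortion. Each of the 12 groups of line, fertility and size had 2 replicates with 2 hybridisations each, 48 arrays in all. Arrays were assigned to replicates by the number in their titles, which do not state this pairing. Every SD and p-value here rests on it. Several plants of a line were sampled, and which plants made up a replicate was not given, so a p-value here speaks only to the spread among these replicates.

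Complex I passes electrons from NADH to ubiquinone and pumps protons across the inner mitochondrial membrane. Its membrane arm holds the pumping subunits, among them the nad4 product, and the small nad4L product. The nad7 product sits in the matrix arm, beside the site where ubiquinone is reduced. Plants keep these genes in the mitochondrion and many other complex I genes in the nucleus, and nad4 and nad7 transcripts must lose group II introns before translation. The tapetum and developing pollen are rich in mitochondria, and rapeseed also has male sterilities of mitochondrial origin, although the trait in these lines is nuclear.

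The deposited values are MAS5 signals, a brightness per probe set on a linear scale, and each array had been scaled to a 2% trimmed mean between 500.01 and 500.03. Median signal ran from 339 to 410.1 over the arrays. The number of arrays limits the precision. Rapeseed RNA binds an Arabidopsis probe less well where the sequences differ. Apart from the marker percentiles below, signals were therefore compared between samples for 1 probe set and never between genes. A difference between J10 and J03 in the probed sequences could also change a signal, which was not tested. In buds as a whole, fewer cells of a type and less RNA per cell cannot be told apart. Of the marker genes for buds that the annotation names, the tapetum genes SHT, AT5G07230 (A9) and AMS had mean signals at the 98.9th, 97.8th and 92.9th percentile of the array. The pollen genes AT3G07840 and ACT12 were at the 74.3th and 42.2th percentile. None of the 5 floral organ identity genes sought was named. The array of J10 sterile middle buds from the second hybridisation of replicate 2 stood apart, with a mean correlation of 0.666 with its own group, against 0.746 for the next lowest array and a median of 0.801. The nad4 results that use sterile J10 middle buds are given with and without it.

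In the RefSeq annotation of the rapeseed assembly Da-Ae, each of the 3 genes matched 1 gene by symbol among the 100 listed for the mitochondrion. There nad4 lies between orfX, a gene for a membrane transport protein also called mttB, and the open reading frame orf116. The gene nad4L lies between orf25, which encodes an ATP synthase subunit, and orf101b, after which comes orf222, an open reading frame linked in other rapeseed material to a cytoplasmic male sterility. The gene nad7 lies between the ribosomal protein gene rps4 and orf120. Which cytoplasm J10 and J03 carry was not given.

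In J10, sterile buds gave a higher nad4 signal than fertile buds at every size, and the difference had its highest value in large buds, after anther abortion. Over the 3 sizes it averaged 1.45 on the log2(signal + offset) scale. After adjustment for a measure of RNA quality, whose median was itself higher in sterile J10 arrays, it was 0.88 and short of a call. Of the single sizes only large buds passed, and whether the change differed between sizes was not tested. No such difference passed the test in J03. The difference between the lines in this change was called at no size, nor averaged over sizes (limma adjusted p = 0.0618). The nad4L signal was lower in J10 than in J03 by 0.37 on the log2(signal + offset) scale, where 15% of the tested probe sets were called. That call was lost in 10 of 24 fits that left out 1 replicate, and no single nad4L difference between lines passed. For nad7 no comparison passed the test. The offset was 112, taken from the 25th percentile of each array, and it shrinks the changes of dimmer probe sets such as nad4L and nad7.

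**Figure D1:**
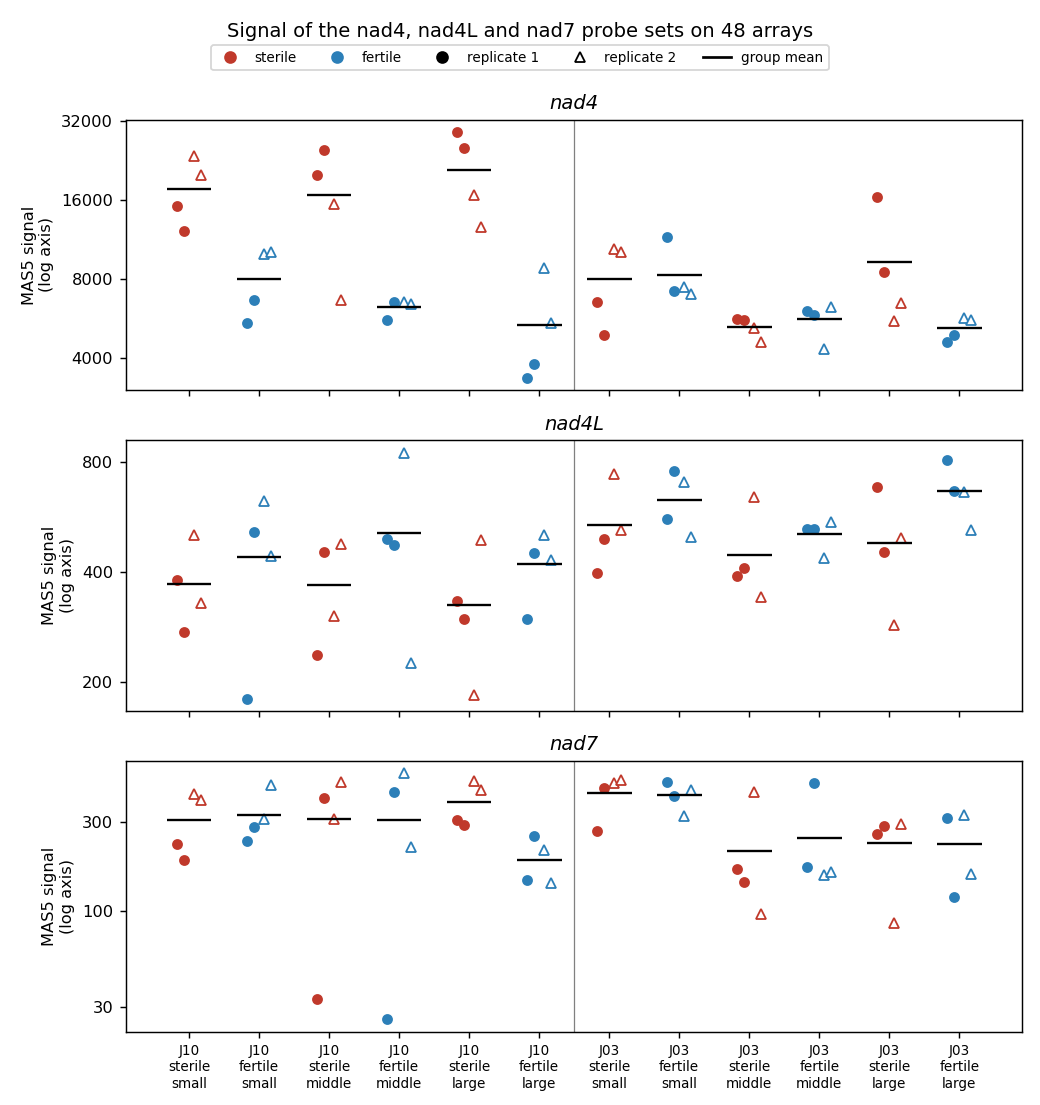
MAS5 signal (log axis) of nad4, nad4L and nad7 on each of 48 arrays, by line, bud size and fertility, with filled circles for replicate 1, open triangles for replicate 2 and black bars for group means. In J10 the nad4 signals of sterile buds lie above those of fertile buds at each size, while the nad4L and nad7 signals of most groups overlap.

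In sterile J10 small buds the nad4 signals were 15159.7 and 12187 in replicate 1 and 23399.7 and 19824 in replicate 2, against 5445 and 6633 in replicate 1 and 9914 and 10097 in replicate 2 of fertile J10 small buds. No sterile array overlapped a fertile one, and the group means were 17643 ± 5613 in sterile and 8022 ± 2805 in fertile buds (SD, n = 2 each). The change was 1.13 with an SE of 0.38 and did not pass the test after adjustment in limma (adjusted p = 0.454, unadjusted p = 0.0071). In this comparison 0.107% of the tested probe sets were called in either direction, and 2.84% were higher in all 4 sterile than in all 4 fertile arrays.

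In sterile J10 middle buds nad4 had signals of 19923 and 24667 in replicate 1 and 15489 and 6634 in replicate 2, against 5558 and 6554 in replicate 1 and 6546 and 6425 in replicate 2 of fertile J10 middle buds. The sterile arrays again lay above the fertile ones, by little for the array that stood apart, whose signal of 6634 was the lowest of sterile J10 buds. Means were 16678 ± 7944 in sterile and 6271 ± 304 in fertile buds (SD, n = 2 each). The change of 1.25 (SE 0.38) had a limma adjusted p of 0.191 with all arrays and became 1.55 with an adjusted p of 0.032 without the array that stood apart. Called probe sets made up 0.571% of those tested, and 2.2% were higher in sterile buds without overlap.

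In sterile J10 large buds the nad4 signals reached 29003 and 25204 in replicate 1 and 16684 and 12602 in replicate 2, against 3358 and 3799.7 in replicate 1 and 8764 and 5454 in replicate 2 of fertile J10 large buds. The lowest sterile array was above the highest fertile one, and the means of 20873 ± 8811 in sterile and 5344 ± 2496 in fertile buds (SD, n = 2 each) gave a signal ratio of 3.91. The change was 1.97 (SE 0.38, 95% interval 1.18 to 2.76) and passed the test (limma adjusted p = 0.0043). Here 2.43% of the tested probe sets were called and 0.499% were called higher, while 4.17% were higher without overlap. Leaving out replicate 1 of sterile large buds gave 1.52 (adjusted p = 0.131) and leaving out replicate 1 of fertile large buds gave 1.503 (adjusted p = 0.142), and both lost the call.

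Sterile J10 arrays were above fertile ones without overlap at all 3 sizes for nad4, which held for 8 probe sets or 0.0571% of those tested. The mean change over sizes of 1.45 (SE 0.22, 95% interval 0.99 to 1.91) passed the test (limma adjusted p = 0.00036), as did 3.47% of the tested probe sets, 0.906% upward. Leaving out any 1 of the 12 J10 replicates gave 1.26 to 1.64, and each of these kept the call, as did the fit without the array that stood apart (1.55, adjusted p = 5.8e-05). After adjustment for the 3′ to 5′ signal ratio of control transcripts, described with the array measures further on, the change was 0.88 (adjusted p = 0.260) and the call was lost. Of the 12 highest nad4 signals among the 48 arrays, 11 came from sterile J10 buds. The other was the first hybridisation of replicate 1 of sterile J03 large buds, with 16457.

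In J03 the nad4 signals of sterile and fertile buds overlapped at each size. Sterile J03 small buds had 6512 and 4907 in replicate 1 and 10388 and 10098 in replicate 2, against 11592 and 7190.1 in replicate 1 and 7442 and 7003 in replicate 2 of fertile J03 small buds. Sterile J03 middle buds had 5634 and 5592 in replicate 1 and 5181 and 4617 in replicate 2, against 6046 and 5843 in replicate 1 and 4318 and 6262 in replicate 2 of fertile J03 middle buds. Small and middle buds thus showed no order by fertility, and their changes were -0.09 and -0.08 (SE 0.38 each). Sterile J03 large buds had 16457 and 8519 in replicate 1 and 5548 and 6458 in replicate 2, against 4615 and 4877 in replicate 1 and 5691 and 5592 in replicate 2 of fertile J03 large buds.

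The sterile large J03 buds were split, with replicate 1 above every fertile array and replicate 2 around them. Means were 9245 ± 4586 in sterile and 5194 ± 633 in fertile J03 large buds (SD, n = 2 each), and the nad4 change of 0.69 (SE 0.38) had a limma adjusted p of 0.642. Over the 3 sizes the nad4 change in J03 was 0.17 (SE 0.22, 95% interval -0.29 to 0.63, adjusted p = 0.875). None of the 3 sizes had an unadjusted p under 0.05, while limma called 0.00713%, 0.0285% and 0.963% of the tested probe sets in small, middle and large J03 buds, and 0.62% over sizes.

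The difference between the lines in the sterile against fertile change was itself tested. For nad4 it was 1.22 in small, 1.33 in middle and 1.28 in large buds (SE 0.54 each), and none was called by limma (adjusted p = 0.825, 0.647 and 0.598), although all 3 had an unadjusted p under 0.05. The call rate in these comparisons was 0% for small buds, 0.0285% for middle buds and 0.0285% for large buds. Averaged over sizes, a comparison added after the values were seen, the difference was 1.28 (SE 0.31, 95% interval 0.63 to 1.92) with an adjusted p of 0.0618 and an unadjusted p of 0.00044, where 0.464% of the probe sets were called. It passed in 5 of 24 fits that left out 1 replicate and had an adjusted p of 0.027 (1.38) without the array that stood apart, which gave 1.63 (adjusted p = 0.353) in middle buds alone, so the call on a difference between lines depended on single replicates. The 5 replicates whose omission gave a call were replicate 2 of J10 sterile middle, J10 sterile large, J10 fertile small and J10 fertile large buds and replicate 1 of J03 sterile large buds, with changes between 1.40 and 1.46.

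**Figure D2:**
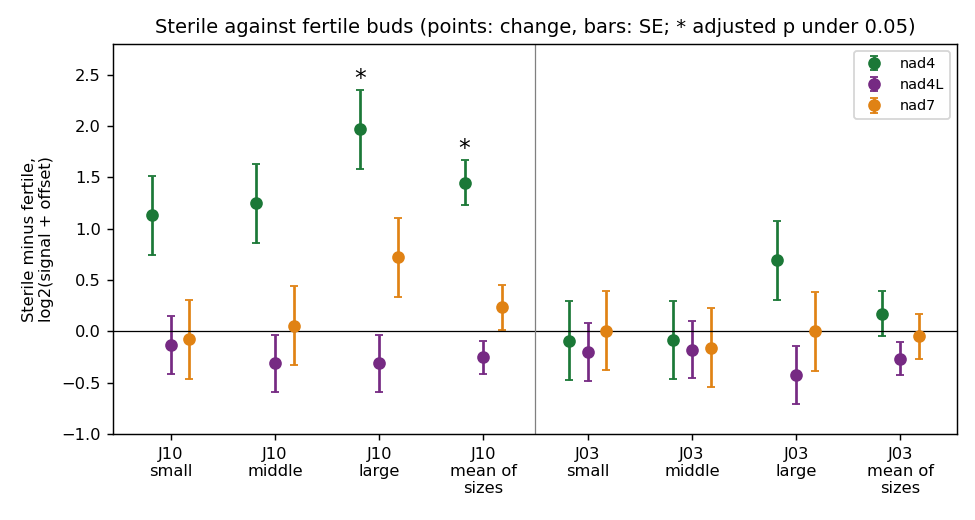
Change of sterile against fertile buds on the log2(signal + offset) scale for nad4, nad4L and nad7, per bud size and averaged over sizes, in J10 (left) and J03 (right); bars are SE and asterisks mark a limma adjusted p under 0.05. The nad4 changes in J10 run from 1.13 to 1.97, and the nad4L changes are below 0 in all 6 size classes.

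For nad4L all 6 sterile against fertile changes were below 0, from -0.42 to -0.13, and none passed the test. Sterile J10 small buds had nad4L signals of 379 and 273 in replicate 1 and 506 and 329 in replicate 2, against 180 and 515 in replicate 1 and 624 and 443 in replicate 2 of fertile J10 small buds. Sterile J10 middle buds had 237 and 453 in replicate 1 and 303 and 477 in replicate 2, against 494 and 473 in replicate 1 and 848 and 226 in replicate 2 of fertile J10 middle buds. The hybridisations of one replicate differed here by as much as the groups, and sterile and fertile arrays overlapped. Sterile J10 large buds had 333 and 298 in replicate 1 and 185 and 488 in replicate 2, against 297 and 451 in replicate 1 and 505 and 431 in replicate 2 of fertile J10 large buds. Averaged over sizes the nad4L change in J10 was -0.25 (SE 0.16, limma adjusted p = 0.491). Without the array that stood apart it was -0.29 (adjusted p = 0.375), and -0.44 (adjusted p = 0.547) in middle buds, against -0.31 there with all arrays.

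The J03 buds gave a like picture at a higher nad4L signal. Sterile J03 small buds had 397 and 492 in replicate 1 and 743 and 521 in replicate 2, against 560.1 and 756 in replicate 1 and 704 and 498 in replicate 2 of fertile J03 small buds. Sterile J03 middle buds had 391 and 409.7 in replicate 1 and 640.4 and 341 in replicate 2, against 525 and 524 in replicate 1 and 438 and 547 in replicate 2 of fertile J03 middle buds. In both sizes the arrays overlapped, the sterile values being the more spread in middle buds. Sterile J03 large buds had 682 and 453 in replicate 1 and 286 and 495 in replicate 2, against 810.3 and 668 in replicate 1 and 661 and 520.2 in replicate 2 of fertile J03 large buds. This size had the lowest nad4L change, -0.42 (SE 0.28, limma adjusted p = 0.715), and the mean over sizes was -0.27 (SE 0.16, adjusted p = 0.643).

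For nad7 the sterile against fertile changes lay on both sides of 0. Sterile J10 small buds had nad7 signals of 229 and 188 in replicate 1 and 427 and 396 in replicate 2, against 238 and 284 in replicate 1 and 314 and 476 in replicate 2 of fertile J10 small buds. Sterile J10 middle buds had 33.4 and 408 in replicate 1 and 313 and 496 in replicate 2, against 25.8 and 438 in replicate 1 and 552 and 221 in replicate 2 of fertile J10 middle buds. In middle buds the first hybridisation of replicate 1 gave by far the lowest nad7 signal of either group, so a replicate mean there joins a dim and a bright array. Sterile J10 large buds had 308 and 290.2 in replicate 1 and 502 and 449 in replicate 2, against 147 and 253 in replicate 1 and 214 and 142 in replicate 2 of fertile J10 large buds.

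The large J10 buds were the one size class of either line in which sterile and fertile nad7 arrays did not overlap. The mean signals were 387 ± 125 in sterile and 189 ± 15.9 in fertile J10 large buds (SD, n = 2 each), a ratio of 2.05, and 4.17% of the tested probe sets were likewise higher without overlap. The nad7 change of 0.72 (SE 0.38, 95% interval -0.07 to 1.52) did not pass the test (limma adjusted p = 0.415). Over the 3 sizes the nad7 change in J10 was 0.23 (SE 0.22, adjusted p = 0.688). Without the array that stood apart it was 0.19 (adjusted p = 0.735), and that of middle buds was -0.07, against 0.05 with all arrays.

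In J03 the nad7 signals of sterile and fertile buds overlapped throughout. Sterile J03 small buds had 269 and 460.3 in replicate 1 and 493 and 506 in replicate 2, against 498 and 419 in replicate 1 and 327 and 451 in replicate 2 of fertile J03 small buds. Sterile J03 middle buds had 169 and 142 in replicate 1 and 439 and 95.5 in replicate 2, against 172 and 493 in replicate 1 and 156 and 162 in replicate 2 of fertile J03 middle buds. One array in each of these middle groups was well above the other 3. Sterile J03 large buds had 259 and 285 in replicate 1 and 85.5 and 294 in replicate 2, against 318 and 119 in replicate 1 and 329 and 157 in replicate 2 of fertile J03 large buds. The nad7 change over sizes was -0.05 (SE 0.22, limma adjusted p = 0.974).

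J10 was set against J03 within each fertility and size, since the study compared its lines at matched stages. The nad4 signal of sterile buds was higher in J10 by 1.16, 1.498 and 1.22 in small, middle and large buds (SE 0.38 each). Of these only the middle buds passed the test (limma adjusted p = 0.162, 0.0367 and 0.0924), where 1.25%, 2.39% and 2.65% of the probe sets were called. In middle buds 0.685% of the tested probe sets were called higher in J10. The sterile J10 arrays lay above the sterile J03 arrays without overlap in small and middle buds, as did 4.54% and 3.34% of the tested probe sets. In fertile buds the nad4 change between lines was between -0.06 and 0.17, with no adjusted p under 0.930 and no unadjusted p under 0.05, against call rates of 0.392%, 0.571% and 0.563%. The call in sterile middle buds was lost without replicate 1 of J10 sterile middle buds (0.94, adjusted p = 0.401) and without replicate 1 or replicate 2 of J03 sterile middle buds (1.60, adjusted p = 0.122 and 1.40, adjusted p = 0.274). It held without the array that stood apart (1.80, adjusted p = 0.0041). A fit of all 48 arrays with the replicate as a random factor also called small (adjusted p = 0.027) and large buds (adjusted p = 0.0107). That fit set the correlation between hybridisations of a replicate at 0.043 for all probe sets, so it counted them as almost independent.

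Averaged over the 6 pairs of groups, nad4 was higher in J10 by 0.65 (SE 0.16, limma adjusted p = 0.0053), and nad4L was lower by 0.37 (SE 0.11, adjusted p = 0.0307). Lines differed widely in this comparison, with 15% of the probe sets called, 7.42% upward and 7.58% downward, so a call here is common among all genes. The nad4 call was lost after adjustment for the 3′ to 5′ ratio (0.15, adjusted p = 0.775). It was also lost when replicates of the same number were treated as a block within each line. Without the array that stood apart the changes were 0.70 for nad4 (adjusted p = 0.0011) and -0.39 for nad4L (adjusted p = 0.022). For nad7 the line difference was 0.03 (SE 0.16, adjusted p = 0.937), and 0.00 without that array. All 6 single nad4L differences were below 0, from -0.55 to -0.09, and none passed alone. In fertile large buds the nad4L signals of all J10 arrays lay below those of the J03 arrays, as did 3.22% of the tested probe sets. The arrays of the other pairs of groups overlapped for nad4L. The nad4L call was lost in 10 of 24 fits that left out 1 replicate, with changes of -0.42 to -0.32 over all 24 and adjusted p-values up to 0.072. The replicates concerned were replicate 1 of J10 sterile small, J10 sterile middle, J10 fertile small, J10 fertile large, J03 sterile large, J03 fertile small, J03 fertile middle and J03 fertile large buds, and replicate 2 of J03 sterile small and J03 sterile middle buds.

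Ordered by level, the 3 sterile J10 groups led for nad4, with large buds first (20873), then small (17643) and middle (16678). Next came sterile J03 large buds (9245 ± 4586) and the 3 other small-bud groups, between 7976 and 8307. Middle and large buds of the remaining groups followed, between 5194 and 6271. Of the 11 neighbouring pairs in this order, the replicates overlapped in 10, the exception being fertile J10 middle (6271 ± 304) over fertile J03 middle buds (5617 ± 463). The replicates of sterile J10 middle and sterile J03 large buds, the step below the leading 3, also overlapped.

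The nad4L order began with fertile J03 large (665 ± 105) and small buds (629 ± 40.6) and ended with the sterile J10 groups, small (372 ± 64.6), middle (367 ± 32.03) and large (326 ± 14.8). Neighbours overlapped in 10 of 11 pairs, the exception being the last one. The nad7 order began with the small buds of J03, sterile (432 ± 95.5) and fertile (424 ± 49.2), and ended with sterile J03 middle (211 ± 79.0) and fertile J10 large buds (189 ± 15.9), and all 11 neighbouring pairs overlapped. The sterile J10 groups thus stood at opposite ends of the nad4 and nad4L orders.

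Between successive bud sizes no member passed the test in any of the 8 comparisons of a line and fertility. The nad4 changes lay between -0.54 and 0.67, the nad4L changes between -0.25 and 0.31 and the nad7 changes between -0.83 and 0.39. The lowest was that of nad7 in middle against small sterile J03 buds, -0.83 (SE 0.38, limma adjusted p = 0.378), the only one of the 24 with an unadjusted p under 0.05. Without the array that stood apart the nad4 change from small to middle sterile J10 buds was 0.11, against -0.19 with all arrays, and that from middle to large was 0.10, against 0.40, and none was called. Call rates were 0.549% and 0.0713% in sterile J10 buds for middle against small and large against middle, 1.55% and 1.13% in fertile J10, 2% and 0.471% in sterile J03, and 3.02% and 0.813% in fertile J03 buds.

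The sterile J10 arrays, which led for nad4, also had the highest medians of the other array measures below. Whether nad4 moved with these measures within a group was not tested. The ratio of 3′ to 5′ signal of control transcripts, a measure of RNA and labelling quality, had a median log2 value of 1.77 (range 1.48 to 2.03) on the 12 sterile J10 arrays, 1.15 (0.805 to 1.70) on fertile J10 arrays, 1.05 (0.747 to 1.38) on sterile J03 arrays and 0.895 (0.702 to 1.32) on fertile J03 arrays. In large buds the J10 ranges did not overlap, at 1.84 to 2.03 in sterile and 0.843 to 1.57 in fertile buds. The controls are Arabidopsis probe sets, so mismatches can enter this ratio too. After adjustment for it in the fit, the nad4 change over sizes in J10 was 0.88 (limma adjusted p = 0.260), that of large buds 1.18 (adjusted p = 0.346) and the nad4 difference between lines 0.15 (adjusted p = 0.775), so none of the 3 kept its call. The same adjustment took the number of probe sets called between sterile and fertile J10 buds over sizes to 30, against 487 without it. As the sterile J10 arrays had the higher ratios, fertility and the ratio cannot be fully told apart in these fits.

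The median log2 signal of plastid-encoded probe sets, a gauge of plastid RNA, was 11.97 (range 11.27 to 12.56) on sterile J10 arrays. On fertile J10 arrays it was 11.52 (10.97 to 11.87). It was 11.10 (10.40 to 12.14) on sterile and 10.65 (10.27 to 11.24) on fertile J03 arrays. Of the 67 tested plastid-encoded probe sets, limma called 7 higher and none lower in sterile against fertile J10 buds over sizes, with a median change of 0.27, where 0.906% of all tested probe sets were called higher. In J03, 1 was called higher and none lower, 60 of the 67 were above 0 and the median was 0.23, beside a nad4 change of 0.17 there. Of all tested probe sets, 0.185% were called higher in that J03 comparison. Limma called 40 of the 67 higher and none lower in J10 against J03, with a median of 0.61, where 7.42% of all tested probe sets were called higher. The sterile J03 array with a nad4 signal of 16457 also had the highest plastid median of its line, 12.14, and a 3′ to 5′ ratio of 1.38. The part of the plastid signal in the nad4 result was not tested. Standard Affymetrix labelling starts from poly(A) tails, which in plant mitochondria mark RNA for decay, and whether tailed and total nad4 RNA moved alike was not measured.

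**Figure D3:**
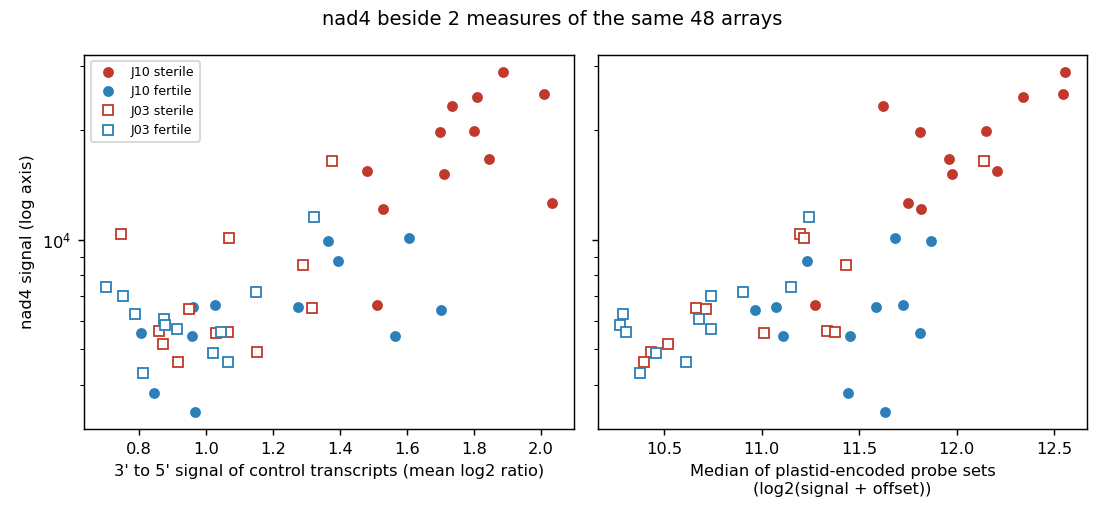
Signal of nad4 (log axis) on 48 arrays against the mean log2 ratio of 3′ to 5′ signal of control transcripts (left) and the median log2 signal of plastid-encoded probe sets (right), by line and fertility. The median of the sterile J10 arrays is the highest of the 4 sets on both horizontal axes, with ranges that overlap those of other sets, and the lowest nad4 signal among them, at 6634, is the array that stood apart from its group.

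Other mitochondrion-encoded genes were set beside the members, from a list of complex I, cytochrome oxidase, ATP synthase, cytochrome c maturation and ribosomal protein genes. The list also held the intron maturase gene matR and orfX. The annotation named 20 probe sets for 13 of the listed genes, none of them for ATP synthase or ribosomal proteins. Of the 20, 13 probe sets for 10 genes were tested. In sterile against fertile J10 buds over sizes, 12 of the 13 changes were above 0, with a median of 0.23 against 0.01 over all tested probe sets, and limma called none (1 had an unadjusted p under 0.05). In J03, 2 of 13 were above 0, with a median of -0.10 and none called (2 with an unadjusted p under 0.05). The nad4 change of 1.45 in J10 was thus above the highest of these 13, which was 0.48 for nad5, a subunit of the membrane arm with a pumping role like that of nad4.

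Among the other complex I genes of the mitochondrion, 7 probe sets for nad1, nad5, nad6 and nad9 were tested and none was called between sterile and fertile buds of J10, of J03, or between lines. The second nad5 probe set gave 0.42 in J10, nad9, a matrix arm subunit, gave 0.21 (SE 0.17), and nad6, of the membrane arm, gave 0.11 (SE 0.14). The 3 tested probe sets of nad1, whose product joins the membrane arm to the matrix arm, gave -0.31, 0.05 and 0.09, so probe sets of a gene differed among themselves. The gene orfX, next to nad4 in the rapeseed annotation, gave 0.32 in J10 (SE 0.14, limma adjusted p = 0.265), against 1.45 for nad4. The cytochrome oxidase gene cox1 gave 0.96 in large buds (SE 0.40, adjusted p = 0.265), 0.04 (adjusted p = 0.981) without replicate 1 of J10 sterile large buds and 1.88 (adjusted p = 0.0098) without replicate 2 of these buds.

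Between lines, 1 of the 13 was called, the cytochrome c maturation gene ccb382, which was higher in J10 by 0.55 (SE 0.18, limma adjusted p = 0.039). In this comparison 15% of all tested probe sets were called, 7.42% upward and the rest downward, so 1 such call is common. Here 5 of 13 changes were above 0 and the median was -0.06. The ccb382 call was lost in 14 of 24 fits that left out 1 replicate, with changes between 0.40 and 0.71. They were replicate 1 of J10 sterile middle, J10 sterile large, J10 fertile middle, J03 sterile small, J03 sterile large and J03 fertile large buds, replicate 2 of J10 sterile small, J10 fertile small, J10 fertile large and J03 sterile middle buds, and both replicates of J03 fertile small and J03 fertile middle buds.

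**Figure D4:**
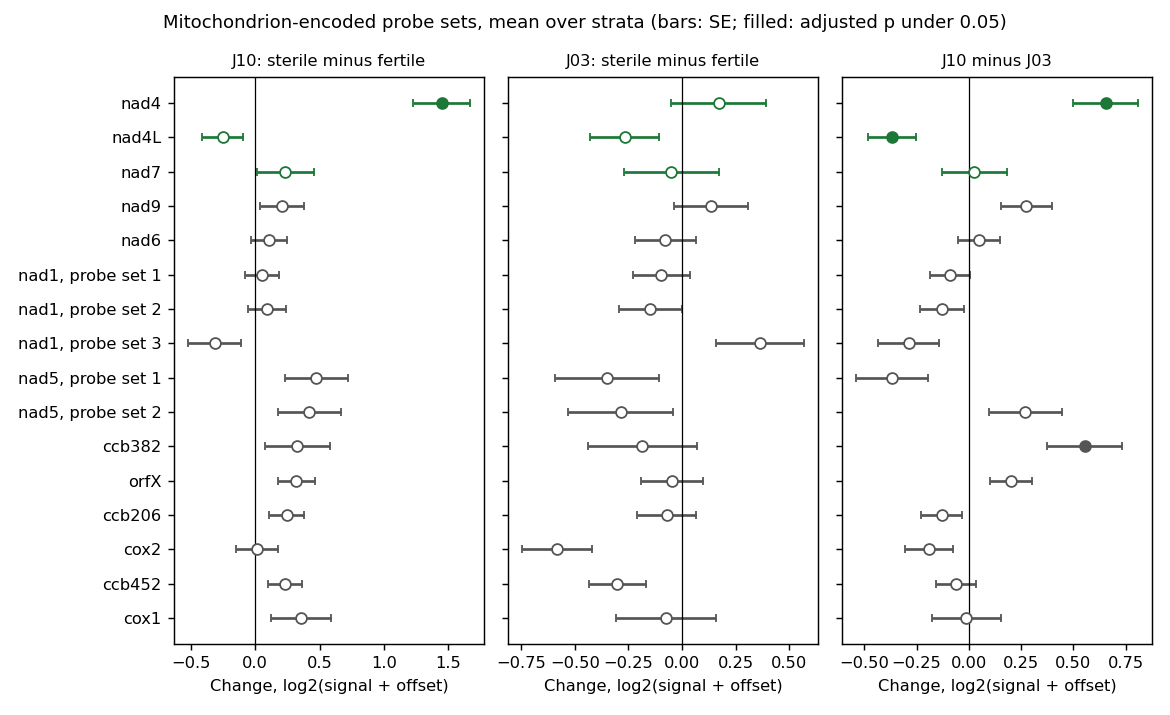
Change on the log2(signal + offset) scale with SE for nad4, nad4L and nad7 (green) and the 13 other tested probe sets of mitochondrion-encoded genes (grey), for sterile minus fertile J10 buds, sterile minus fertile J03 buds and J10 minus J03, each averaged over its groups, with filled points for a limma adjusted p under 0.05. In J10 the nad4 change of 1.45 is the only filled point of the sterile against fertile panels.

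Averaged over sizes, complex I genes of the nucleus had lower values in sterile than fertile J10 buds, most of them short of a call. Of 18 genes listed, 8 were named and tested, and all 8 changes over sizes were below 0, with a median of -0.18. Limma called 2 lower, AT5G11770 for the PSST subunit of the quinone-reducing module (-0.71, SE 0.16, adjusted p = 0.0124) and AT4G02580 for a subunit of the NADH-oxidising module (-0.55, SE 0.14, adjusted p = 0.0314), in a comparison where 2.57% of all tested probe sets were called lower. Of the 8, 4 were above 0 in small buds (median -0.03) and 2 in middle buds (median -0.16). In large buds, which are part of the mean, all 8 were below 0, with a median of -0.44. There AT5G11770 was called (-1.21, SE 0.28, adjusted p = 0.0145), as were 1.93% of all tested probe sets in that direction. In J03 none was called over sizes (1 with an unadjusted p under 0.05) and 6 of 8 were above 0. By size, 5 were above 0 in small, 5 in middle and 2 in large J03 buds, where the median was -0.15.

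AT5G11770 was also lower in J10 than in J03 (-0.48, SE 0.11, limma adjusted p = 0.0047), the 1 nuclear complex I gene of 8 called there. Between lines 15% of all tested probe sets were called, 7.58% downward. After adjustment for the 3′ to 5′ ratio neither gene was called in any of these comparisons. The AT5G11770 call over sizes was lost without replicate 1 of J10 sterile large buds (-0.66, adjusted p = 0.051), and that of large buds without replicate 1 of the sterile (-1.08, adjusted p = 0.170) or without replicate 1 (-1.12, adjusted p = 0.155) or 2 (-1.31, adjusted p = 0.0504) of the fertile buds. AT4G02580 lost its call in 8 of 12 such fits, where changes lay between -0.64 and -0.46. Those 8 left out either replicate of J10 sterile small or J10 sterile large buds, replicate 2 of J10 sterile middle, J10 fertile small or J10 fertile large buds, or replicate 1 of J10 fertile middle buds.

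Nuclear factors that act on nad transcripts and the alternative NADH dehydrogenases, which oxidise NADH without pumping protons, gave no call between sterile and fertile buds. Of 15 listed RNA factors 5 were named and 2 tested, SLO3, which takes part in nad7 splicing, and NMAT4, which takes part in nad1 splicing. Their changes over sizes had a median of 0.30 in J10 and 0.07 in J03, and neither had an unadjusted p under 0.05. Of 12 listed alternative dehydrogenases 5 were named and 3 tested, NDB1, NDB2 and NDB3, of which 1 had an unadjusted p under 0.05 in J10 over sizes.

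Markers of other bud tissues were set beside these values. Of the 3 tapetum genes, SHT, a tapetal acyltransferase, was the 1 called in sterile against fertile J10 buds over sizes (-1.81, SE 0.21, limma adjusted p = 1.5e-05), while the list ran from there to 0.26 with a median of -0.06. In large J10 buds AT5G07230 (A9) was called higher (1.51, SE 0.26, adjusted p = 0.0012) and SHT lower (-2.40, SE 0.36, adjusted p = 0.00023). Of the 2 pollen genes tested, the polygalacturonase family gene AT3G07840 was called (-1.37, SE 0.26, adjusted p = 0.0029). In J03 it was called too (-1.63, SE 0.26, adjusted p = 0.0022). The pollen genes had a median of -0.88 in J10 and -1.30 in J03, and in large J03 buds both were called lower, with changes of -4.13 for AT3G07840 and -2.33 for ACT12. The nuclear photosynthesis genes RCA (-0.52, SE 0.13, adjusted p = 0.024) and PRK (-0.61, SE 0.14, adjusted p = 0.0118) were lower in sterile J10 buds. In J03 these 2 had a median of 0.27 and neither was called. The part of these tissues in the nad4 result was not tested.

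The tested probe sets with 1 gene were ranked by the Pearson correlation of their 12 group means with each member, on the log2(signal + offset) scale, as a description over groups that share arrays. Closest to nad4 among 7843 were psbZ, a plastid-encoded photosystem II gene (r = 0.931), AT5G62340 (r = 0.916) and MOL1, a receptor-like kinase gene (r = 0.909). For nad4, orfX had r = 0.79, nad7 0.52 and nad4L -0.67. Closest to nad4L were AT1G18720 (r = 0.899), BIK1, a receptor-like cytoplasmic kinase gene (r = 0.890), and AT1G12630 (r = 0.886). Closest to nad7 were AT1G73920 (r = 0.903), SIZ1, a SUMO ligase gene (r = 0.895), and VPS9B (r = 0.887), with cox1 at 0.818 and nad4L at 0.01. By group means, no other member or mitochondrion-encoded gene was among the 3 closest to any member. Over the 24 replicates the correlation with nad4 was 0.864 for psbZ, 0.711 for MOL1 and 0.409 for AT5G62340. That of orfX was 0.767.

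**Figure D5:**
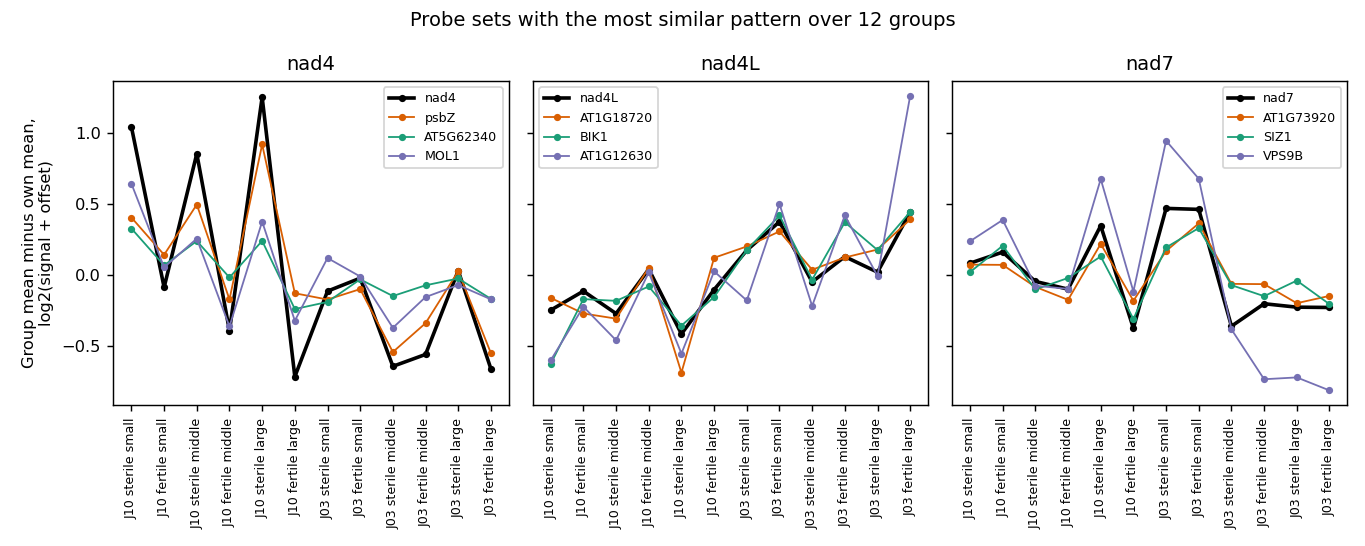
Group means of nad4, nad4L and nad7 (black) and of the 3 probe sets with the highest correlation to each, each minus its own mean over the 12 groups, on the log2(signal + offset) scale. The nad4 and psbZ lines peak in the 3 sterile J10 groups, where nad4L is lowest in large buds.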

How the data were processed

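RNA from 48 samples was hybridised to 1 array each. The authors deposited linear signal intensity values, and per the submitters' processing notes MAS5 made them, in a version not given in the sources used here. Per the labels' protocols, Trizol and RNeasy columns gave the RNA, from which biotinylated cRNA was made. In the table of 22810 probe sets, 64 were controls, 13513 had 1 gene in the given annotation, 503 had several and 8730 were unnamed here. A tech_rep array was read as the second hybridisation of the replicate with its number, which the titles do not state. The array correlations did not bear this out for every group of either line. In sterile J10 buds, hybridisations of replicate 2 correlated at 0.808 in small, 0.686 in middle and 0.764 in large buds. The values between replicates there were 0.818, 0.732 and 0.767. Hybridisations of replicate 1 correlated at 0.861, 0.808 and 0.815 in these groups. In fertile J03 large buds, hybridisations of a replicate correlated at 0.792 and 0.800, against 0.804 between replicates. In fertile J10 large buds they correlated at 0.855 and 0.826, against 0.807.

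Signals were changed to log2(signal + 112) and hybridisations averaged, leaving 24 columns. Probe sets entered if, on average, their signal was at or above the array median in both replicates of at least 1 group, 14021 in all, 7844 with 1 gene. All 12 groups entered one fit in limma 3.58.1 (R 4.3.3, trend on, 12 residual degrees of freedom). Benjamini-Hochberg adjustment was made within each of 27 comparisons, and an adjusted p under 0.05 was a call. The fit was tested on simulated data. Alternatives were offsets of 16 and 500, quantile normalization, no filter, first hybridisations, all 48 arrays, compared groups only, the replicate block, the 3′ to 5′ covariate and leaving out each replicate. The mean line difference over sizes and the fit without the array that stood apart were added after the data were seen. The 3′ to 5′ ratio is the mean over actin, GAPDH and ubiquitin controls. Genes named were the members, other mitochondrion-encoded genes, called nuclear genes of fixed lists, markers, and the 3 closest patterns per member. Members and lists were chosen with earlier results of these data known.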

Additional observations from a re-analysis of the deposited data

Results flagged for a closer look

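Each member was looked at within each group of 4 arrays, 36 sets in all, for an array far from the other 3, and chance marks about 1 in 20 such sets. In fertile J10 middle buds the lowest nad4 signal was 5558, with the other 3 arrays between 6425 and 6554. In fertile J03 small buds the highest nad4 signal was 11592, with the others between 7003 and 7442. In sterile J03 large buds the lowest nad7 signal was 85.5, with the others between 259 and 294. In fertile J03 middle buds the highest nad7 signal was 493, with the others between 156 and 172.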

How the results depend on the processing

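Changes below are on the log2 scale with limma's adjusted p. For nad4 in J10 middle buds, all 48 arrays with the replicate as a random factor gave a call at 1.25 (0.022), as did leaving out the array least like its group, an alternative chosen after seeing the data (1.55, 0.032). Adjusted for the 3′ to 5′ ratio (the covariate below), the nad4 change fell short of a call in J10 large buds (1.18, 0.346), over J10 sizes (0.88, 0.260) and between lines (0.15, 0.775). The nad4 line difference of the sterile against fertile change, averaged over sizes, passed with quantile normalization (1.45, 0.015), all 48 arrays (1.28, 0.0022), the replicate block (1.28, 0.034) and without the odd array (1.38, 0.027). Same-numbered replicates of J10 deviated together in 14 of 15 pairs of groups (correlations 0.094 to 0.292), those of J03 did not (-0.045 to 0.080), so the numbers were not taken as a pairing; the replicate block within line gave 0.57 (0.092) for nad4 between lines, losing the call. Between lines nad4L lost its call with first hybridisations (-0.44, 0.167) and the covariate (-0.51, 0.142). Leaving out 1 replicate gave, for nad4, 0.77 to 1.49 in J10 small, 0.69 to 1.81 in middle and 1.503 to 2.43 in large buds, 1.26 to 1.64 over J10 sizes, 1.09 to 1.46 for the line difference of that change and 0.56 to 0.75 between lines, and -0.42 to -0.32 for nad4L between lines. Uncalled changes turned sign for nad4 in J03 middle buds with first hybridisations (0.078) and in fertile buds between lines with the covariate in middle buds (-0.20) and first hybridisations in large buds (0.083), and when 1 replicate was left out in J03 small (-0.51 to 0.33), J03 middle (-0.18 to 0.013), fertile small (-0.43 to 0.30) and fertile large buds (-0.52 to 0.41). For nad4L they did so with first hybridisations in J10 small buds (0.25, or -0.42 to 0.16 with 1 replicate left out) and between lines in fertile middle buds (0.37). For nad7 they did so in J03 middle buds with first hybridisations (0.51, or -0.46 to 0.15 with 1 replicate left out), over J03 sizes with 1 replicate left out (-0.15 to 0.052), and between lines with an offset of 16 (-0.0011), first hybridisations (-0.13), the block (-0.27), the covariate (-0.15) and 1 replicate left out (-0.048 to 0.10), and orfX between lines with the covariate (-0.014). The call of nad4 in sterile middle buds between lines was lost with no filter (1.498, 0.057), first hybridisations (1.68, 0.051), the compared groups only (1.498, 0.098), the block (1.41, 0.061) and the covariate (0.74, 0.517). All 48 arrays gave it a call in sterile small (1.16, 0.027) and large buds (1.22, 0.011). The fit of all 48 arrays used a correlation of 0.043 between hybridisations of a replicate. It thus counted them as almost independent, which lowers its p-values wherever the hybridisations of a replicate move together. Numbers of called probe sets ran from 79 to 575 in J10 large buds (341 as reported), 30 to 798 over J10 sizes (487) and 485 to 2446 between lines (2104). The causes were not tested.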
